A study of Mus musculus with 8 samples.

Results

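The 10 CC chemokine ligands Ccl2, Ccl3, Ccl4, Ccl5, Ccl6, Ccl7, Ccl9, Ccl17, Ccl22 and Ccl24 were chosen by symbol as ligands that macrophages make. Of them, 9 matched a row among the 18473 genes of the deposited table, and Ccl17 is not analysed here. Expression was measured by RNA sequencing in 8 mouse libraries, 4 of them titled EXO and the other 4 LPS. Macrophages given ADSC-Exos are the subject of the design text, which asks about macrophage polarization, the shift of these cells between inflammatory and reparative programmes. The labels do not spell the abbreviations out. LPS is the common short form of lipopolysaccharide, from the outer membrane of bacteria, a strong stimulus of macrophages. ADSC-Exos is commonly used for vesicles (exosomes) that stem cells from fat tissue release. No genotype, dose or time is labelled, nor whether EXO cells also received LPS, and untreated cells are not analysed here. All libraries carry the labels lung, epithelial cell and MLE-12, a mouse lung epithelial cell line. From the steps of the deposited values, between 37014760 and 40591444 fragments assigned to genes were recovered for each library.

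Those labels were checked against marker genes. The level of 1 FPKM (fragments scaled to gene length and library depth) was reached on average by 16 of 17 analysed macrophage markers and by none of the 4 analysed lung epithelial markers. Each list names 18 genes, so the epithelial check rests on a small part of its list. The summed FPKM of the macrophage markers ran from 5969 to 7526 in EXO and from 10698 to 22095 in LPS. Much of that sum was Lyz2, at 2800 to 3935 FPKM in EXO and 5859 to 14935 in LPS. Of the 16 tested macrophage markers, 12 fell in EXO and 1 rose (limma adjusted p under 0.05). Among all tested genes 24.7% fell and 33.7% rose by the same threshold. The summed level of the epithelial markers was 0.0725 to 0.341 FPKM in EXO and 0.0308 to 0.187 in LPS. Sums over the other marker lists were at most 15.7 FPKM in any library. That of the endothelial markers was higher in EXO (11.4 to 15.7) than in LPS (2.52 to 4.31) and was mostly Egfl7, while the defining marker Pecam1 averaged 0.155 and 0.177 FPKM. Alveolar macrophage markers summed to 4.82 to 8.28 in EXO and 9.42 to 15.4 in LPS. The list of mast cell and basophil markers is not analysed here. The part of these marker levels in the ligand results was not tested, and in bulk RNA fewer cells of a type and less RNA per cell cannot be told apart.

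CC chemokines are small secreted proteins with a pair of adjacent cysteines near the amino end. They bind G protein-coupled receptors on leukocytes and guide their migration along a gradient. Macrophages exposed to microbial products are a major source. Ccl2 and Ccl7 act on the receptor Ccr2 and draw monocytes, while Ccl3, Ccl4 and Ccl5 draw monocytes, T cells and other leukocytes. Ccl6 and Ccl9 are rodent ligands of Ccr1, Ccl17 and Ccl22 bind Ccr4 on T cells, and Ccl24 binds Ccr3 on eosinophils.

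In RefSeq (GRCm38.p6, another build than the authors' GRCm39), 7 of the 10 ligand genes lie on chromosome 11. Ccl2 and Ccl7 are neighbours in a group of genes there, and Ccl5, Ccl9, Ccl6, Ccl3 and Ccl4 follow each other in another. The RefSeq promoter table matched 5 of the 10 ligands, among them Ccl9, Ccl6 and Ccl3, which are consecutive genes on the minus strand. They are shown because these neighbours had different levels and different calls: Ccl9 lower in EXO, Ccl3 narrowly higher and Ccl6 not called. A difference in calls is not a tested difference in change. Each line gives the 250 bases before the start site, 5′ to 3′ on the strand of the gene, with matches to the NF-kB motif (GGG and CC with any 5 bases between them, on either strand) in capitals.
Ccl9, chr11:83578637-83578886: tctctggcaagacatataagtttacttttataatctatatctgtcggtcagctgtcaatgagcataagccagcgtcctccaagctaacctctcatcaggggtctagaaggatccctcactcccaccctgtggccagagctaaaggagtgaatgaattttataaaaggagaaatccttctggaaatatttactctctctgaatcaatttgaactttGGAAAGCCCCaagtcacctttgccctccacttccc
Ccl6, chr11:83593088-83593337: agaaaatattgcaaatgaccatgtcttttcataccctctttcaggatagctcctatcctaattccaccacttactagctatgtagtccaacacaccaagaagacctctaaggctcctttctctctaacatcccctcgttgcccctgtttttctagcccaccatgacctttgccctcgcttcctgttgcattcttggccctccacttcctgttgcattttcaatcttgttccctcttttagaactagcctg
Ccl3, chr11:83649379-83649628: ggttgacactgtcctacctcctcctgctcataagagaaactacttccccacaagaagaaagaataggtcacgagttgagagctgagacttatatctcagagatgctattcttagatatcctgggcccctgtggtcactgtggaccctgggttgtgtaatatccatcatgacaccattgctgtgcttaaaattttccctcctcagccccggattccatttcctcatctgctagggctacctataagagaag

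The Ccl9 window held 1 match to the NF-kB motif, GGAAAGCCCC, from base -35 to base -26 before the start site. It also held 1 match to the AP-1 motif (TGA and TCA around any base) from -53 to -47, which does not overlap the former. The Ccl6 and Ccl3 windows held neither. Of the 5 ligand windows, 2 held the NF-kB motif, those of Ccl9 and of Ccl22, a ligand barely detected in either group. Among all 32851 RefSeq promoter windows of that length, 45.8% held the NF-kB motif and 6.75% the AP-1 motif, so the former is common by its letters alone. The STAT motif, TTC and GAA around 3 free bases, was in 7.02% of all windows, and its form with 4 free bases in 5.85%. The IRF motif, GAAA repeated after 2 free bases, was in 2.98%. None of these had a match in the 3 windows. The longest run shared by the Ccl6 and Ccl9 windows was gccctccacttcc, 13 bases, and Ccl3 shared at most 8 bases with either. A match describes letters, and no match says only that these letters are not in this window.

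Ligand expression changed its make-up between the groups. Ccl2 and Ccl7, which are among the ligands of Ccr2, rose in EXO, and Ccl5 and Ccl9 fell. Ccl3 passed the threshold narrowly, and Ccl4 and Ccl6 were not called. Genes were tested where at least 4 libraries reached 1 FPKM. Of the 9 ligands 7 passed, and all 7 reached that level in every library. By limma with a Benjamini-Hochberg adjusted p under 0.05 over all genes, 3 of the 7 rose and 2 fell. That is to be read against 58.4% of the 9812 genes tested, with 33.7% higher and 24.7% lower. That balance depended on scaling, since median-of-ratios rescaling gave 2891 higher and 2925 lower genes, against 3310 and 2422, and a median over all genes of 0.0041. The median log2 fold change was 0.53 over the 7 ligands and 0.085 over all genes tested. That ligand median is the value of Ccl4, which was not called, and the 7 ligands ran from -3.68 to 4.62. It thus does not show a shared shift of the ligands. Each log2 fold change subtracts the LPS mean from the EXO mean of log2(FPKM + 1), so the change of a gene with low values is larger than it shows.

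**Figure D1:**
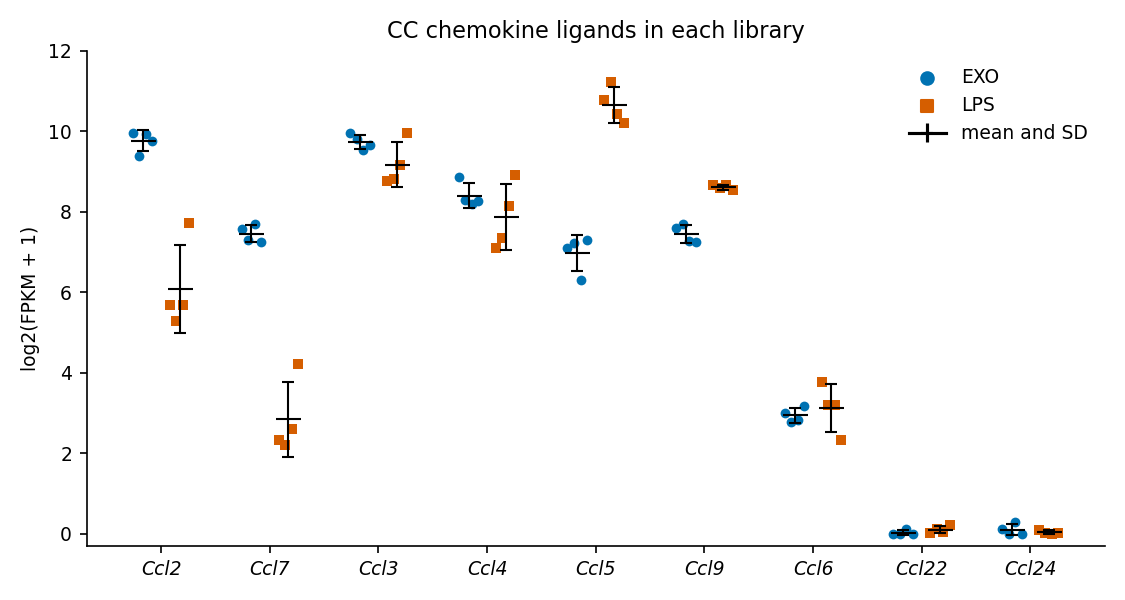
Level of each of the 9 ligands, as log2(FPKM + 1), in the 4 EXO libraries (blue circles) and 4 LPS libraries (orange squares), with the group mean and SD in black. Ccl2 and Ccl7 were higher and Ccl5 and Ccl9 lower in every EXO library than in any LPS library, and Ccl22 and Ccl24 lay near 0.

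Ccl2 (Entrez gene 20296), the main chemoattractant of inflammatory monocytes, stood at 991, 671, 971 and 870.2 FPKM in EXO replicates 1 to 4 and at 49.9, 37.8, 50.5 and 208 in LPS replicates 1 to 4. Every EXO library lay above every LPS library, and LPS replicate 4 stood apart above the other LPS libraries. The mean was 876 ± 147 (SD, n = 4) in EXO and 86.6 ± 81.3 in LPS, a ratio of 10.1. Its log2 fold change of 3.67 (SE 0.50, 95% interval 2.53 to 4.82) had a limma adjusted p of 0.000350, and 6 of all tested genes, Ccl2 among them, had one at least as high. LPS replicate 4 held 4.52 times the mean of the other LPS libraries. Without it the LPS mean was 46.0 ± 7.16, the ratio 19.0 and the log2 fold change 4.22.

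Ccl7 (Entrez gene 20306), a second ligand of Ccr2, stood at 189, 157, 207 and 150.2 FPKM in EXO and at 3.99, 3.60, 5.10 and 17.7 in LPS. The groups did not overlap, and LPS replicate 4 was again the highest LPS library. The mean was 176 ± 26.9 (SD, n = 4) in EXO and 7.59 ± 6.75 in LPS, a ratio of 23.2. On the log2 scale this was 4.62 (SE 0.42, 95% interval 3.63 to 5.60), with a limma adjusted p of 4.06e-05, and 3 of all tested genes, Ccl7 among them, had a value at least as high. These values rest on 4466 to 6159 fragments per library in EXO and 112 to 562 in LPS. Without LPS replicate 4 the ratio was 41.6 and the log2 fold change 5.08.

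Ccl5 (RANTES, Entrez gene 20304), which draws T cells and monocytes, showed the opposite direction. It stood at 135, 147, 77.9 and 156 FPKM in EXO and at 1757, 2379, 1373 and 1176 in LPS. All EXO libraries lay far below all LPS libraries, with EXO replicate 3 the lowest of all. The LPS mean of 1671 ± 530 FPKM (SD, n = 4) was 12.9 times the EXO mean of 129 ± 35.2. Its log2 fold change of -3.68 (SE 0.26, 95% interval -4.25 to -3.11) had a limma adjusted p of 1.23e-06, and 15 of all tested genes, Ccl5 among them, had one at least as low. Ranked by FPKM among all 18473 genes, Ccl5 stood between places 36 and 76 in LPS libraries and between 509 and 988 in EXO libraries.

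Ccl9 (Entrez gene 20308), a rodent ligand of Ccr1 that draws myeloid cells, fell by less and with little spread. It stood at 192, 205, 154 and 152 FPKM in EXO and at 402, 382, 403 and 369 in LPS. The groups did not overlap, and the LPS libraries were close together, with a coefficient of variation of 4.25% against 15.4% in EXO. The mean was 176 ± 27.1 (SD, n = 4) in EXO and 389 ± 16.5 in LPS. Ccl9 fell by 1.15 on the log2 scale (SE 0.12, 95% interval of the change -1.41 to -0.89, limma adjusted p = 3.05e-06).

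Ccl3 (MIP-1 alpha, Entrez gene 20302), a ligand of Ccr1, stood at 990.4, 892, 740.1 and 800.5 FPKM in EXO and at 429.9, 452, 571 and 989.5 in LPS. LPS replicate 4 reached the level of the highest EXO library, so the groups overlapped, while the other 3 LPS libraries lay below all EXO libraries. The mean was 856 ± 109 (SD, n = 4) in EXO and 611 ± 260.1 in LPS. On the log2 scale the difference was 0.56 (SE 0.23, 95% interval 0.069 to 1.06), with a limma adjusted p of 0.0493. That call was lost in 11 of 15 alternatives, among them leaving out any library other than LPS replicate 4. Without LPS replicate 4 the log2 fold change was 0.82 with a limma adjusted p of 2.31e-05.

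Ccl4 (MIP-1 beta, Entrez gene 20303), which draws monocytes and T cells, stood at 465, 309.9, 291 and 306 FPKM in EXO and at 136, 162, 280.3 and 478 in LPS. The groups overlapped, with LPS replicate 4 above every EXO library and EXO replicate 1 apart above the other EXO libraries. The means of 343 ± 81.8 in EXO and 264 ± 156 in LPS (SD, n = 4) differed by less than the spread of the LPS libraries. With a log2 fold change of 0.53 (SE 0.39, 95% interval -0.36 to 1.42) Ccl4 was not called (limma adjusted p = 0.273). Without LPS replicate 4 Ccl4 was called higher in EXO, at 0.87 with a limma adjusted p of 0.0252. The RefSeq spans of Ccl3 and Ccl4 overlap by 755 bases and the sources used here give no strand setting for the counting, so fragments from that stretch may not be told apart.

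Ccl6 (Entrez gene 20305), the other rodent ligand of Ccr1, stood at 6.97, 5.79, 6.12 and 8.07 FPKM in EXO and at 12.5, 8.24, 8.22 and 3.98 in LPS. The groups overlapped, and LPS replicate 4 was here the lowest of all libraries. A log2 fold change of -0.18 (SE 0.25, 95% interval -0.73 to 0.37) was not called (limma adjusted p = 0.555). It turned to 0.033 without LPS replicate 1 and was called lower without LPS replicate 4, at -0.45 with a limma adjusted p of 0.0138.

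Ccl22 and Ccl24, ligands associated with alternatively activated macrophages, were barely detected and did not pass the filter. Ccl22 (Entrez gene 20299) was listed at 0 in EXO replicates 1, 2 and 4 and at 0.0744 FPKM in replicate 3, and at 0.0136, 0.0854, 0.0272 and 0.153 in LPS. Ccl24 (Entrez gene 56221) was listed at 0.0775, 0, 0.216 and 0 FPKM in EXO and at 0.0717, 0.0188, 0 and 0.0184 in LPS. No library held more than 11 fragments of either gene, so a difference between the groups was not detectable at this depth.

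**Figure D2:**
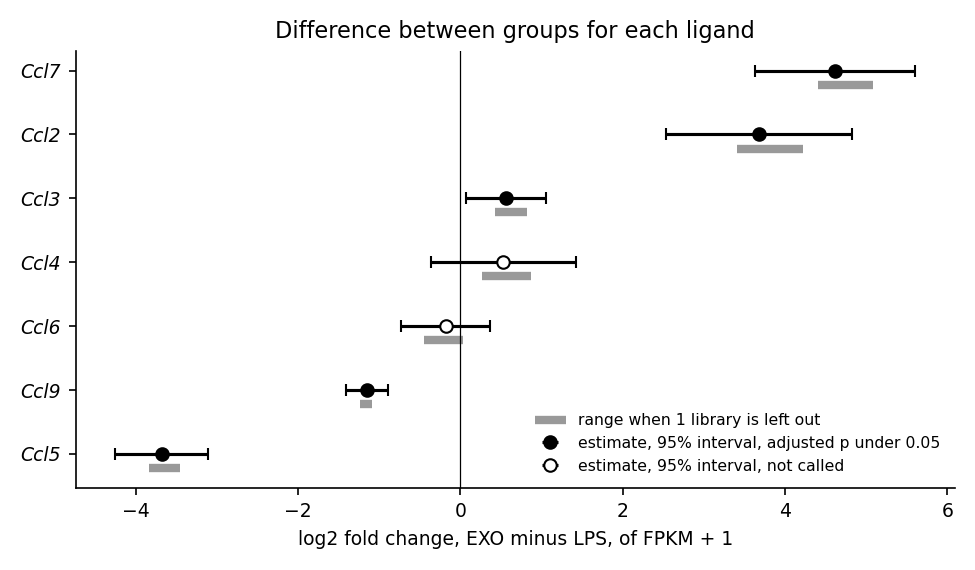
Log2 fold change of each tested ligand from LPS to EXO, with its 95% confidence interval; filled points have a limma adjusted p under 0.05, and grey bars span the values when 1 library is left out. Ccl7 and Ccl2 lay at 4.62 and 3.67 and Ccl5 and Ccl9 at -3.68 and -1.15, while the grey bar of Ccl6 crossed 0.

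LPS replicate 4 stood at an end of the LPS group for all 7 tested ligands. It was the highest LPS library for 4 of the 7 tested ligands (Ccl2, Ccl7, Ccl3 and Ccl4) and the lowest for the other 3 (Ccl5, Ccl9 and Ccl6). For 5 of the 7 it was the LPS library nearest to the EXO mean on the log2 scale, Ccl4 and Ccl6 being the exceptions. Without it, 4 ligands were called higher in EXO and 3 lower, and calls over the whole table rose too, to 3659 higher and 2447 lower. Groups without overlap were seen in 4 of the 7 ligands, 2 in each direction, against 51.2% of all tested genes, 29.1% higher and 22.1% lower in EXO.

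The summed FPKM of the 9 ligands overlapped between the groups, while its make-up differed. The sum was 2970.3, 2388, 2447 and 2442 FPKM in EXO and 2791, 3423, 2691 and 3242 in LPS. The overlap came from EXO replicate 1 alone, and the other EXO libraries lay below every LPS library. Without Ccl5 the sum did not overlap, at 2240 to 2835 FPKM in EXO and 1034 to 2067 in LPS. Ccl2 and Ccl7 together made up 34.7% to 48.1% of the sum in EXO and 1.21% to 6.97% in LPS. Ccl5 made up 3.18% to 6.38% in EXO and 36.3% to 69.5% in LPS. The share of Ccl3 and Ccl4 together ran from 42.1% to 50.3% in EXO and from 17.9% to 45.3% in LPS, where the highest share was that of LPS replicate 4. Ccl9 held 6.20% to 8.60% in EXO and 11.1% to 15.0% in LPS, and Ccl6 at most 0.449% in any library. Shares are tied to each other, so a higher share of a ligand lowers that of the others, and they are given as a description without a test.

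**Figure D3:**
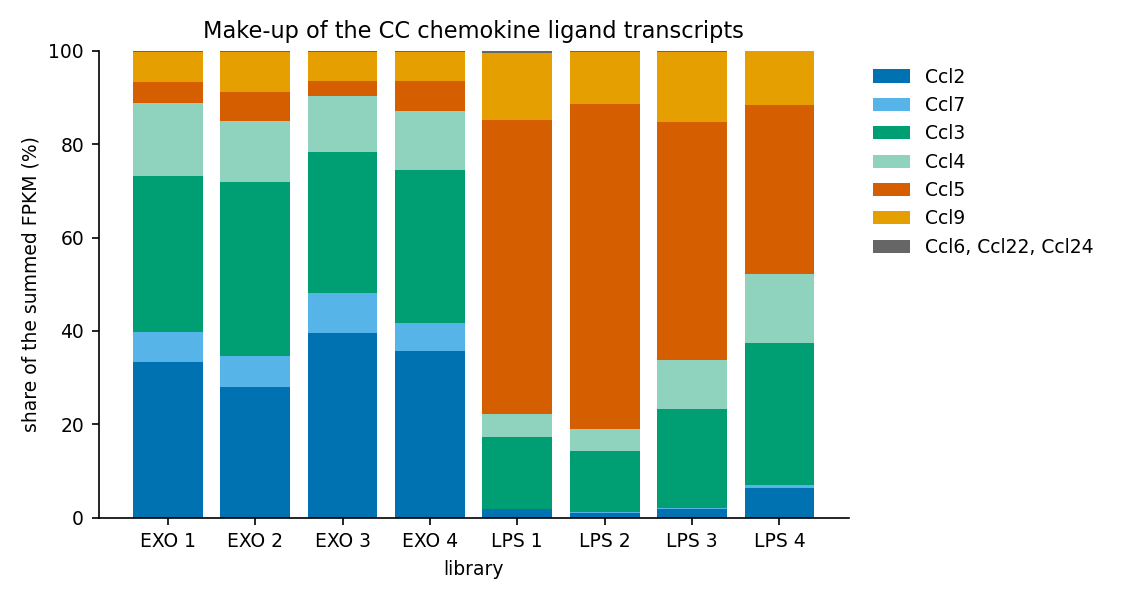
Share of each ligand, in percent, in the summed FPKM of the 9 ligands, with 1 bar for each library. Ccl5 (dark orange) filled 36.3% to 69.5% of the LPS bars and 3.18% to 6.38% of the EXO bars, while Ccl2 and Ccl7 (blues) filled 34.7% to 48.1% of the EXO bars.

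Since FPKM is scaled to gene length, levels can be ordered within a group. The order and the shares above rest on the gene lengths used, which the sources do not give. By fragments, Ccl9 (44099 to 49258) lay above Ccl3 (13814 to 31053) in every LPS library, the reverse of their FPKM order. In EXO the order of mean FPKM was Ccl2, Ccl3, Ccl4, Ccl7, Ccl9, Ccl5 and Ccl6. Ccl2 and Ccl3 overlapped in range, as did Ccl7 with Ccl9 and Ccl9 with Ccl5, so these neighbours were not separated. In LPS the order was Ccl5, Ccl3, Ccl9, Ccl4, Ccl2, Ccl6 and Ccl7. There Ccl3 and Ccl9, which lie next to each other in that order, did not overlap, whereas Ccl9 and Ccl4, Ccl4 and Ccl2, and Ccl6 and Ccl7 did. Within each LPS library Ccl4 was above Ccl2, in 4 of 4.

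Ratios within a library compared ligands whose genes lie side by side. The ratio of Ccl2 to Ccl7 FPKM was 5.25, 4.27, 4.68 and 5.79 in EXO and 12.5, 10.5, 9.90 and 11.8 in LPS. Every EXO library had a lower ratio than every LPS library, and LPS replicate 4 lay within the range of the other LPS libraries although both of its levels were high. The difference of log2(FPKM + 1) between the genes was 0.94 lower in EXO (-0.94). The two-sided exact permutation p was 0.0286 over 70 splits, the smallest possible, and 0.0857 after adjustment over the 3 pairs compared. That value did not pass the adjusted threshold, which 1 pair alone at the smallest possible p cannot pass over 3 pairs. The adjusted p thus cannot decide whether this ratio differed. The ratio of Ccl3 to Ccl4 ran from 2.13 to 2.88 in EXO and from 2.04 to 3.17 in LPS, with a difference of 0.033 (exact permutation p = 0.857, adjusted 0.857). The ratio of Ccl6 to Ccl9 ran from 0.0282 to 0.0532 in EXO and from 0.0108 to 0.0311 in LPS, with a difference of 0.97 (exact permutation p = 0.0571, adjusted 0.0857).

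**Figure D4:**
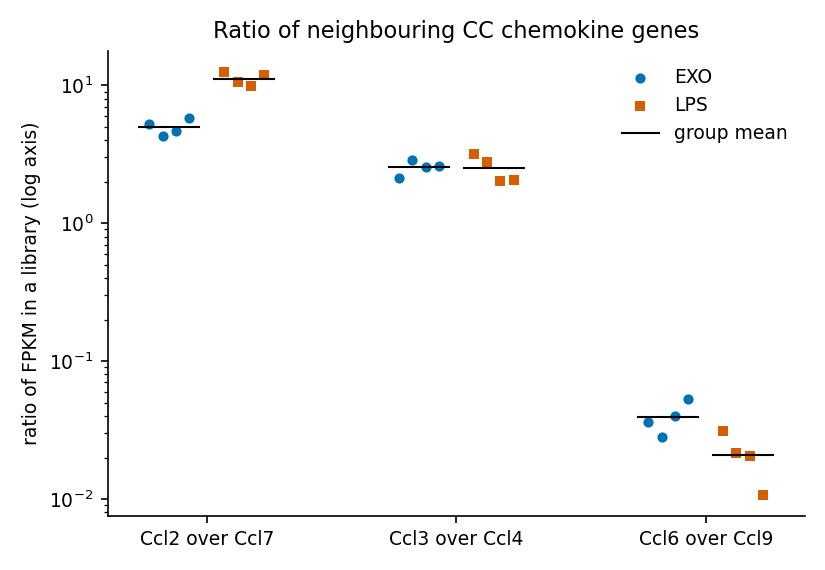
Ratio of the FPKM of neighbouring ligand genes within each library, on a log axis, for EXO (blue circles) and LPS (orange squares), with the group mean as a line. The Ccl2 to Ccl7 ratio lay between 4.27 and 5.79 in EXO and between 9.90 and 12.5 in LPS, and the other ratios overlapped.

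Of the other CC ligands, 2 of 14 listed genes are analysed here, and neither was called. Ccl12 (MCP-5), a mouse ligand of Ccr2 from the chromosome 11 group that holds Ccl2 and Ccl7, stood at 5.01, 4.33, 9.0 and 4.37 FPKM in EXO and at 0.734, 1.39, 3.49 and 8.13 in LPS. LPS replicate 4 was once more the highest LPS library and made the groups overlap. Its log2 fold change was 0.83 (SE 0.50, limma adjusted p = 0.188), and without LPS replicate 4 it was 1.28 with a limma adjusted p of 0.0307. Ccl25, a ligand of Ccr9, averaged 1.41 ± 0.327 (SD, n = 4) in EXO and 1.09 ± 0.202 in LPS (limma adjusted p = 0.165).

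Of 16 listed CC receptors 10 are analysed here and 3 were tested, of which 1 rose and 1 fell, where 58.4% of all tested genes were called. Ccr1, a receptor of Ccl3, Ccl5, Ccl6 and Ccl9, stood at 7.97, 7.30, 6.63 and 8.02 FPKM in EXO and at 1.79, 3.33, 2.60 and 3.65 in LPS. Every EXO library lay above every LPS library (log2 fold change 1.17, SE 0.15, limma adjusted p = 1.60e-05). Ccrl2, an atypical receptor that binds chemerin and does not signal through G proteins, stood at 1.69, 2.03, 0.815 and 1.16 in EXO and at 10.5, 10.8, 9.87 and 8.91 in LPS. It was lower in all EXO libraries (log2 fold change -2.21, SE 0.15, limma adjusted p = 6.80e-08).

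Ccr2, the receptor of Ccl2 and Ccl7, was under the filter in both groups, at 0.635, 0.664, 0.713 and 0.627 FPKM in EXO and at 0.531, 0.415, 0.380 and 0.245 in LPS. The EXO libraries lay above all LPS libraries, and in the fit without a filter the limma adjusted p was 0.0206. Ccr3 averaged 0.0456 ± 0.00663 FPKM in EXO and 0.0732 ± 0.020 in LPS. Ccr1l1, Ccr7, Ccr9 and Ccr10 had means of at most 0.10 FPKM in either group, and Ccr8 was listed at 0 throughout.

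**Figure D5:**
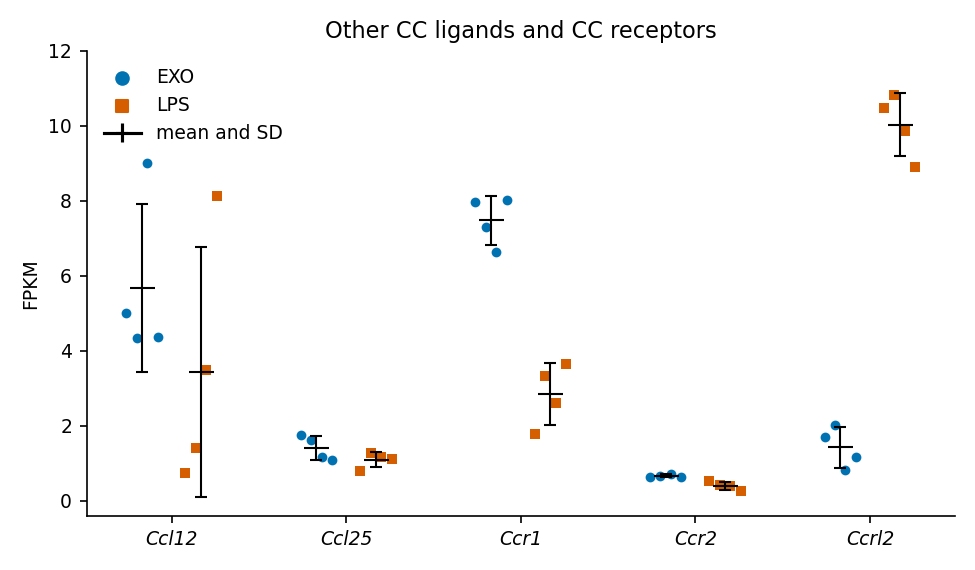
FPKM of 2 further CC ligands and 3 CC receptors in the 4 EXO libraries (blue circles) and 4 LPS libraries (orange squares), with the group mean and SD in black. Ccr1 was higher and Ccrl2 lower in every EXO library than in any LPS library, while the groups overlapped for Ccl12 and Ccl25.

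Among the CXC, CX3C and XC ligands, the family nearest to the CC ligands, 12 of 17 are analysed here and 4 were tested, of which 1 rose and 2 fell, too few to set against the 58.4% called over all genes. Cxcl14 averaged 22.9 ± 6.38 FPKM (SD, n = 4) in EXO and 0.753 ± 0.533 in LPS (limma adjusted p = 8.76e-08). Cxcl2, which draws neutrophils, averaged 12.1 ± 4.35 and 54.8 ± 24.6 (0.000364). Cxcl10, an interferon-induced ligand that draws T cells, averaged 5.41 ± 3.16 and 21.3 ± 10.9 (0.00579). In the list of chemokine receptor signalling, 28 genes were tested, of which 6 rose and 11 fell. The remaining 11 were not called, and the median was -0.14 on the log2 scale. The share called, 60.7%, was near the 58.4% of all tested genes, and the 6 higher calls became 2 without EXO replicate 3 and 3 without EXO replicate 4 or LPS replicate 2. Its smallest p-values were those of Rgs18 and Rgs2, which speed G protein inactivation, and Grk5, a receptor kinase. Rgs18 averaged 24.1 ± 2.71 FPKM in EXO and 52.1 ± 4.72 in LPS, Rgs2 6.92 ± 1.63 and 18.7 ± 3.40, and Grk5 0.519 ± 0.126 and 1.68 ± 0.426.

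Of 23 tested factors that act on the transcription or decay of chemokine mRNAs, 4 rose and 7 fell, 47.8% called against 58.4% of all tested genes. The other 12 were not called, and the median log2 fold change of the list was -0.19. Under median-of-ratios rescaling 11 fell. Atf3, a stress-induced repressor, averaged 70.1 ± 17.0 FPKM (SD, n = 4) in EXO and 129 ± 18.9 in LPS, and Elavl1 (HuR), which binds and stabilizes AU-rich mRNAs, rose from 12.4 ± 1.19 in LPS to 18.5 ± 1.83 in EXO.

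The genes whose profiles lay nearest to each ligand were found by the Euclidean distance between centred log2(FPKM + 1) values over the 8 libraries, among the 9383 tested genes that are neither ligands of this list nor, by their symbols, predicted genes or pseudogenes. Nearest to Ccl2 were Cxcl14 (distance 1.36) and Dmwd (1.38), and nearest to Ccl7 were Id3 (1.12) and Cxcl14 (1.57). Ccl2 and Ccl7 themselves lay 1.42 apart. For Ccl5 they were H2-T24 (0.682), a class I histocompatibility gene, and Ifi205 (0.724), an interferon-induced gene. For Ccl9 they were Pik3r6 (0.217) and Rnaset2a (0.285), for Ccl6 Ppm1j (0.269) and Rogdi (0.310), for Ccl4 Denr (0.669) and Pdia5 (0.744), and for Ccl3 Zfp213 (0.396) and Jdp2 (0.413). Ccl3 and Ccl4 lay 0.632 apart, so Ccl3 was nearer to Ccl4 than Denr was.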

How the data were processed

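The aligner HISAT2 and the build GRCm39 are named, without further detail, per the submitters' processing notes. For the counting tool, its strand setting and the annotation, the sources used here give nothing. The table that the authors deposited has 1 value per gene and library, taken as FPKM: the header names no unit. Read as steps of whole fragments, all 17645 detected genes came out whole within 0.001, giving 37014760 to 40591444 fragments per library. Genes seen in few libraries come out whole in any case, so that count alone is no test of the unit.

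Values were tested as log2(FPKM + 1) in limma 3.58.1 (R 4.3.3) with trended, robust variances, two-sided. The 9812 genes that reached 1 FPKM in 4 or more libraries were tested, and p-values were adjusted over them by Benjamini-Hochberg (threshold 0.05). The fit was tested on simulated data. No label tells whether replicates were separate cultures. P-values thus measure only how these samples spread, possibly for technical reasons. Alternatives were a pseudocount of 0.1, no filter, a minimum mean of 5 FPKM, median-of-ratios rescaling, limma without trend and robust variances, voom on recovered fragments, a block for the replicate number, and each library left out. Pairs of neighbouring ligands were compared by exact permutation; the planned Ccl17 and Ccl22 pair and protein identities are not analysed here. Members and lists were chosen with earlier results of these data known. Named genes are the ligands, the CC ligands and receptors on the lists, the 3 smallest p-values of every other chemokine list, the 2 nearest profiles per ligand, and the 2 most abundant genes of each marker list, of which the text gives the list sums. Some genes that this rule takes are not reported. Promoters are from RefSeq (GRCm38.p6), oriented as the gene.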

Additional observations from a re-analysis of the deposited data

Results flagged for a closer look

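In 3 of the 30 groups of 4 libraries looked at, a library stood apart by Dixon's gap ratio, its gap to the nearest library over the range of the group, on the log2(FPKM + 1) scale, above Dixon's 95% critical value. Chance gives about 1 in 20. LPS replicate 4 stood above the other LPS libraries for Ccl2, narrowly past the critical value (gap ratio 0.832). EXO replicate 1 stood above the other EXO libraries for Ccl4 (0.864) and for the summed FPKM of the 9 ligands (0.887). Ccl4 is part of that sum, so these flags are not separate. For Ccl7, LPS replicate 4 was the highest LPS library too, without passing the critical value.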

How the results depend on the processing

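Ccl2, Ccl7, Ccl5 and Ccl9 kept their direction and their call in all 15 alternatives, with log2 fold changes of 3.41 to 4.22, 4.40 to 5.08, -3.83 to -3.46 and -1.25 to -1.09. Ccl3 lost its call under median-of-ratios rescaling (0.47, limma adjusted p = 0.0731), without a filter (0.56, 0.163), with a pseudocount of 0.1 (0.56, 0.0530) and with the replicate number as a block (0.56, 0.0587); the cause was not tested. With 1 library left out, Ccl3 ranged from 0.42 to 0.82, Ccl4 from 0.27 to 0.87 and Ccl6 from -0.45 to 0.033. A pseudocount of 0.1 gave a within-library difference of -1.14 for Ccl2 and Ccl7. Over the fits with 1 library left out, the within-library differences ranged from -1.02 to -0.86 for Ccl2 and Ccl7, from -0.059 to 0.15 for Ccl3 and Ccl4 and from 0.73 to 1.17 for Ccl6 and Ccl9. Without LPS replicate 1, the first (-0.91) and the last (1.17) passed the threshold (exact permutation, adjusted p = 0.0429 each). Pairs at the smallest possible p can pass that threshold only together, so this pass does not show a larger difference. Counts of calls ranged from 0 to 1 (other CC ligands, higher) and from 2 to 8 (receptor signalling, higher, with 2 calls without EXO replicate 3 and 3 without EXO replicate 4 or LPS replicate 2). Without a filter 2 CC receptors were higher, and under rescaling 11 transcription and decay factors were lower. Among 32 further named genes, 2 turned sign with a library left out: Batf3 (-0.13 to 0.16) and Ppm1j (-0.33 to 0.050).

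Libraries with the same replicate number did not deviate together (r of 0.045, 0.17, -0.29 and -0.11), so the number is not taken as a pairing. The replicate block gave 3253 higher and 2339 lower genes, against 3310 and 2422 without it and 3343 and 2447 by voom on the recovered fragments. Median-of-ratios rescaling gave 2891 and 2925, so the excess of higher calls was not seen there. A minimum mean of 5 FPKM gave 2485 and 1685 among fewer genes, no filter 3268 and 2747, and leaving out a library 2861 to 3659 and 2135 to 2447.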
